A study of Homo sapiens with 4 samples.

Results

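The m6A peaks of 8 well-known long noncoding RNA (lncRNA) genes were examined in RPMI-8226, a human cell line derived from multiple myeloma. The genes were MALAT1, NEAT1, NORAD, TUG1, PVT1, OIP5-AS1, GAS5 and KCNQ1OT1, and they were chosen by symbol, with every listed peak of each gene taken. The assay, m6A-seq, pulls down poly(A) RNA that carries N6-methyladenosine (m6A) with an antibody and reads it next to the unenriched input. The lentivirus-transduced cells carried a hairpin that targets ALKBH5, the demethylase that takes m6A off RNA (shALKBH5), or the hairpin labelled shNC. Each condition had 1 immunoprecipitated (IP) and 1 input library, from 1 cell line, so no value has a replicate and there is no test between conditions. Of the 12792 genes with any peak, 6 were among the 8 lncRNA genes, and all 6 had peaks in both lists, as did 83% of the 12792. These 6 genes held 26 of 24626 peaks in the shALKBH5 list and 27 of 22448 peaks in the shNC list. GAS5 and KCNQ1OT1 had 0 peaks in either list.

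The lncRNAs described here are long transcripts that are not known mainly as templates for protein. MALAT1 accumulates in nuclear speckles, and NEAT1 is the scaffold of paraspeckles, made as a short and a long isoform that begin at the same start. NORAD is an abundant cytoplasmic RNA that binds Pumilio proteins, and m6A is placed on such RNAs, as on mRNAs, by the METTL3 and METTL14 methyltransferase complex. MALAT1 in particular is a long-standing model RNA for m6A, where methylation has been described to change how a hairpin is opened to RNA-binding proteins.

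All folds and p-values of peaks below come from the authors' deposited tables, and describe or rank peaks within 1 list. A fold is the enrichment of IP over input in a peak, and a more negative log10 p is a stronger call. Depth is unknown, because no read counts are given, so how far a strong p reflects high RNA abundance cannot be measured. Coordinates are hg38 and count from 1. No source used here gives the strand of the reads, so overlapping genes cannot be told apart. Among genes of plasma cells, XBP1, IRF4, PRDM1 and SDC1 had peaks in both lists and TNFRSF17 had 0, but peak lists hold no expression level that would check the cell type.

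Listed peaks covered some of the RefSeq starts of these RNAs and not others. RefSeq (GRCh38.p14) start windows were at hand for 5 of the 8 genes, and the first 50 transcribed bases are shown, 5' to 3', to set the starts that lie in a peak beside those that do not. Capitals mark GGAC, the core of the common m6A motif.
MALAT1, outer start, chr11:65497738-65497787, plus strand: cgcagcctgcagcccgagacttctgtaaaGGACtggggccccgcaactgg
MALAT1, inner start, chr11:65499045-65499094, plus strand: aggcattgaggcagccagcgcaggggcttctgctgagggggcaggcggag
NORAD, chr20:36050911-36050960, minus strand: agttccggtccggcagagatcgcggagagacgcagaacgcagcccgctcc
OIP5-AS1, chr15:41283990-41284039, plus strand: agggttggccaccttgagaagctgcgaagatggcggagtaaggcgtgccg
TUG1, chr22:30969265-30969314, plus strand: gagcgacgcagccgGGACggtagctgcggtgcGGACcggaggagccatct
GAS5, chr1:173868996-173869045, minus strand: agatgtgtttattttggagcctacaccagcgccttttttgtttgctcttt
At the inner MALAT1 start, at NORAD and at OIP5-AS1, all 50 bases lay inside a peak of both lists. The OIP5-AS1 window is also an inner start, 1293 bases past the first base of the RefSeq span, which no OIP5-AS1 peak covered. At the outer MALAT1 start, at TUG1 and at GAS5, 0 of the 50 bases did. GGAC stood 2 times on the transcribed strand at TUG1 and 1 time at the outer MALAT1 start, where it was part of GGACT. It was absent from the transcribed strand of the 3 windows inside peaks, and NORAD held 1 copy on the opposite strand. Of all 35116 RefSeq start windows of this length, 18.9% held GGAC on the transcribed strand, 33.5% on either strand, and 4.9% held GGACT on the transcribed strand. The windows cover only a small part of each peak, so these letters describe the starts and not the rest of the peaks.

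MALAT1 (ENSG00000251562) spans 8779 bases on chromosome 11, from 65497738 to 65506516, and its peaks fell into an upstream block and a downstream site. In the shALKBH5 list the upstream block was made of 3 separate peaks, at 65499035 to 65499214, 65499334 to 65499902 and 65500052 to 65501129. In the shNC list it was 1 unbroken peak of 1886 bases, at 65499035 to 65500920. The left border was the same in both, 10 bases before the inner RefSeq start shown above. The 3 shALKBH5 peaks held 1618 of the 1886 bases (85.8%) and ran 209 bases past the right border of the shNC peak, with gaps of 119 and 149 bases between them. Only 0.241% of shNC peaks were as wide as this one or wider.

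The folds of the 3 upstream MALAT1 peaks in shALKBH5 cells, from the authors' deposited table, were 4.61, 2.34 and 7.29, with log10 p values of -24.9, -62.1 and -500. The undivided shNC peak reached a fold of 13 (log10 p -443). In the shALKBH5 list the third of the 3 peaks was thus the strongest of the gene by both measures. The downstream site lay at 65502596 to 65503105 in the shALKBH5 list, at a fold of 2.7 (log10 p -68.7), and at 65502626 to 65503075 in the shNC list, at 3.11 (log10 p -70.5). This site contains a listed peak of a small annotated entry, RF01871, in both lists. Despite 4 peaks in the shALKBH5 list and 2 in the shNC list, peaks covered 2337 and 2336 bases of MALAT1. The peak numbers thus differed between the lists, while the covered lengths were 1 base apart.

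**Figure D1:**
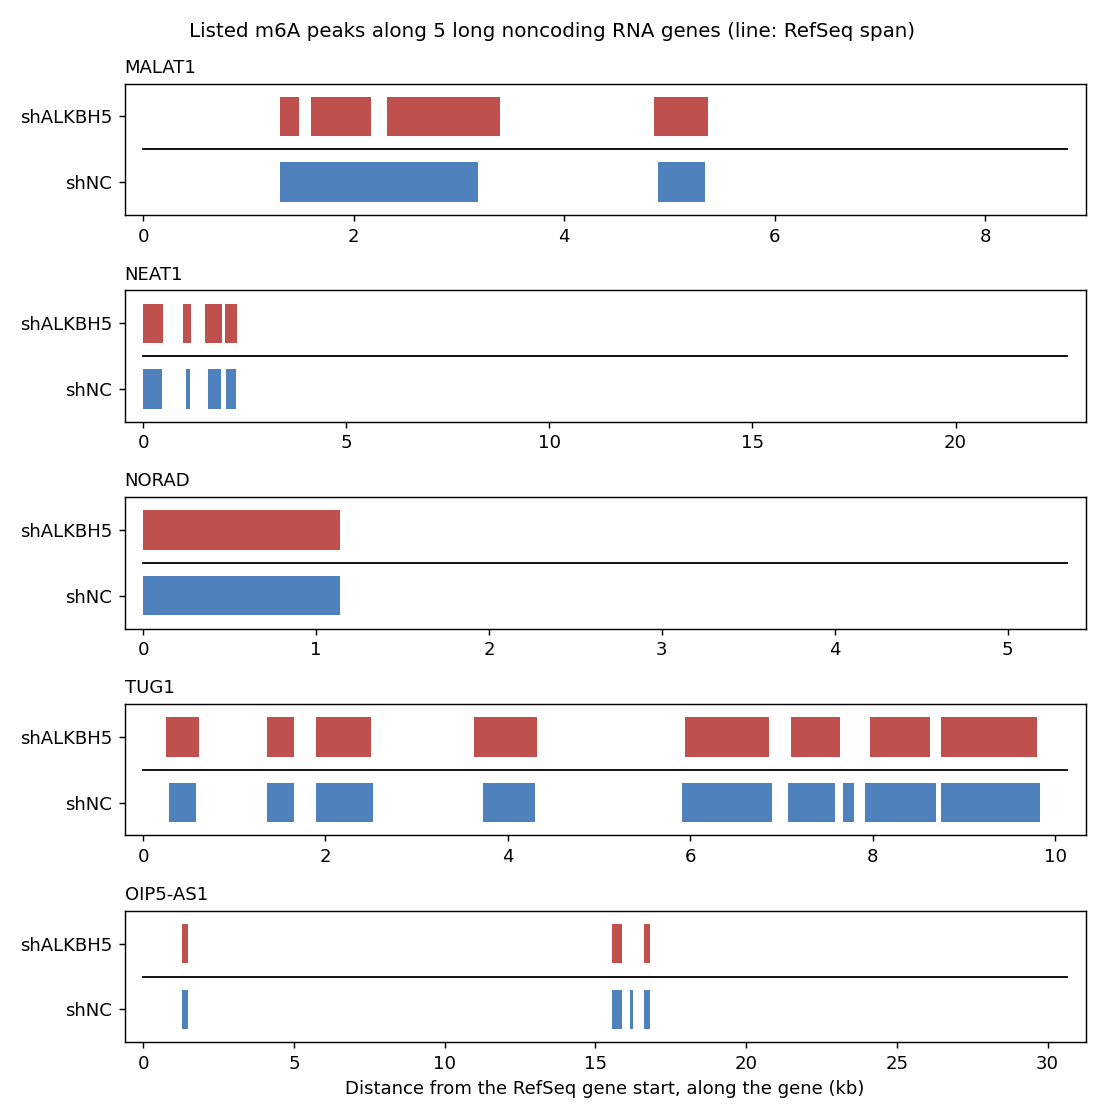
Listed peaks along MALAT1, NEAT1, NORAD, TUG1 and OIP5-AS1, drawn as bars against distance from the RefSeq gene start in kb, with shALKBH5 above and shNC below the line that marks the RefSeq span. For NEAT1 the first of its 2 listings is drawn. The MALAT1 upstream block is 3 bars in shALKBH5 and 1 bar of 1886 bases in shNC, and all NEAT1 bars lie within 2309 bases of the start.

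NEAT1 (ENSG00000245532) spans 22743 bases on chromosome 11, from 65422798 to 65445540, and its peaks lay at 4 sites, all ending within 2309 bases of the gene start. This is part of the stretch that the short and the long isoform share. Both lists give NEAT1 in 2 separate runs of rows whose starts differ by 2 to 6 bases, so 8 rows stand for 4 sites in each list. The second run begins exactly at the RefSeq start and the first run 6 bases after it. Values below are those of the first run.

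At the NEAT1 start, the peak ran from 65422804 to 65423283 in the shALKBH5 list and to 65423253 in the shNC list, with folds of 12.3 and 5.35 and log10 p values of -64.5 and -49.3. The second site, at 65423791 to 65423970 in the shALKBH5 list, reached a fold of 2.52 (log10 p -27.6). This was the weakest NEAT1 site by fold in both lists, and in the shNC list it was 91 bases wide, at a fold of 1.63 (log10 p -9.07). The third site, at 65424329 to 65424748 in the shALKBH5 list, had a fold of 4.17 and the strongest p of the gene, -293. In the shNC list it reached a fold of 3 (log10 p -165), again the strongest of the gene. The fourth site, at 65424808 to 65425107 in the shALKBH5 list, reached a fold of 12.3 (log10 p -18.5), against 22.1 (log10 p -22) in the shNC list. The site with the strongest p was thus not the site with the highest fold in either list.

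At all 4 NEAT1 sites the shNC peak lay wholly inside the shALKBH5 peak, which was 480, 180, 420 and 300 bases wide, against 450, 91, 330 and 240 bases in the shNC list. The shNC peak also lay inside a wider shALKBH5 peak at the downstream MALAT1 site and at the first and the fourth TUG1 sites. Their shALKBH5 widths were 510, 361 and 689 bases, against 450, 301 and 570 in the shNC list. The sixth TUG1 site was wider in the shALKBH5 list as well, at 540 against 510 bases, but neither peak lay inside the other. The other TUG1 sites and those of NORAD, PVT1 and OIP5-AS1 were not wider in the shALKBH5 list. Of the 19 sites of the 6 genes that had exactly 1 peak in each list, 8 were wider in the shALKBH5 list, 6 were narrower and 5 had the same width. The 2 runs of rows gave the fourth NEAT1 site different folds in the shNC list. In the second run, with borders 2 or 3 bases away, the authors' deposited table gives that site a fold of 14.3 in place of 22.1. In the shALKBH5 list the 2 runs gave 12.3 and 12.2, and at the first 3 sites the folds of the 2 runs differed by at most 1.02 times in both lists.

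NORAD (ENSG00000260032), on the minus strand of chromosome 20 from 36045618 to 36050960, had 1 peak, with the same borders in both lists. It ran from the RefSeq start at 36050960 to 36049820, so it covered the first 1141 of 5343 bases (21.4%). Its fold was 8.98 in the authors' deposited table for shALKBH5 and 11.6 in that for shNC, with log10 p values of -689 and -395. By p it stood at percentile 98.6 of all shALKBH5 peaks and 96.3 of all shNC peaks, and by fold at 61.1 and 72.5. The remaining 3' part of NORAD had 0 peaks in either list.

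**Figure D2:**
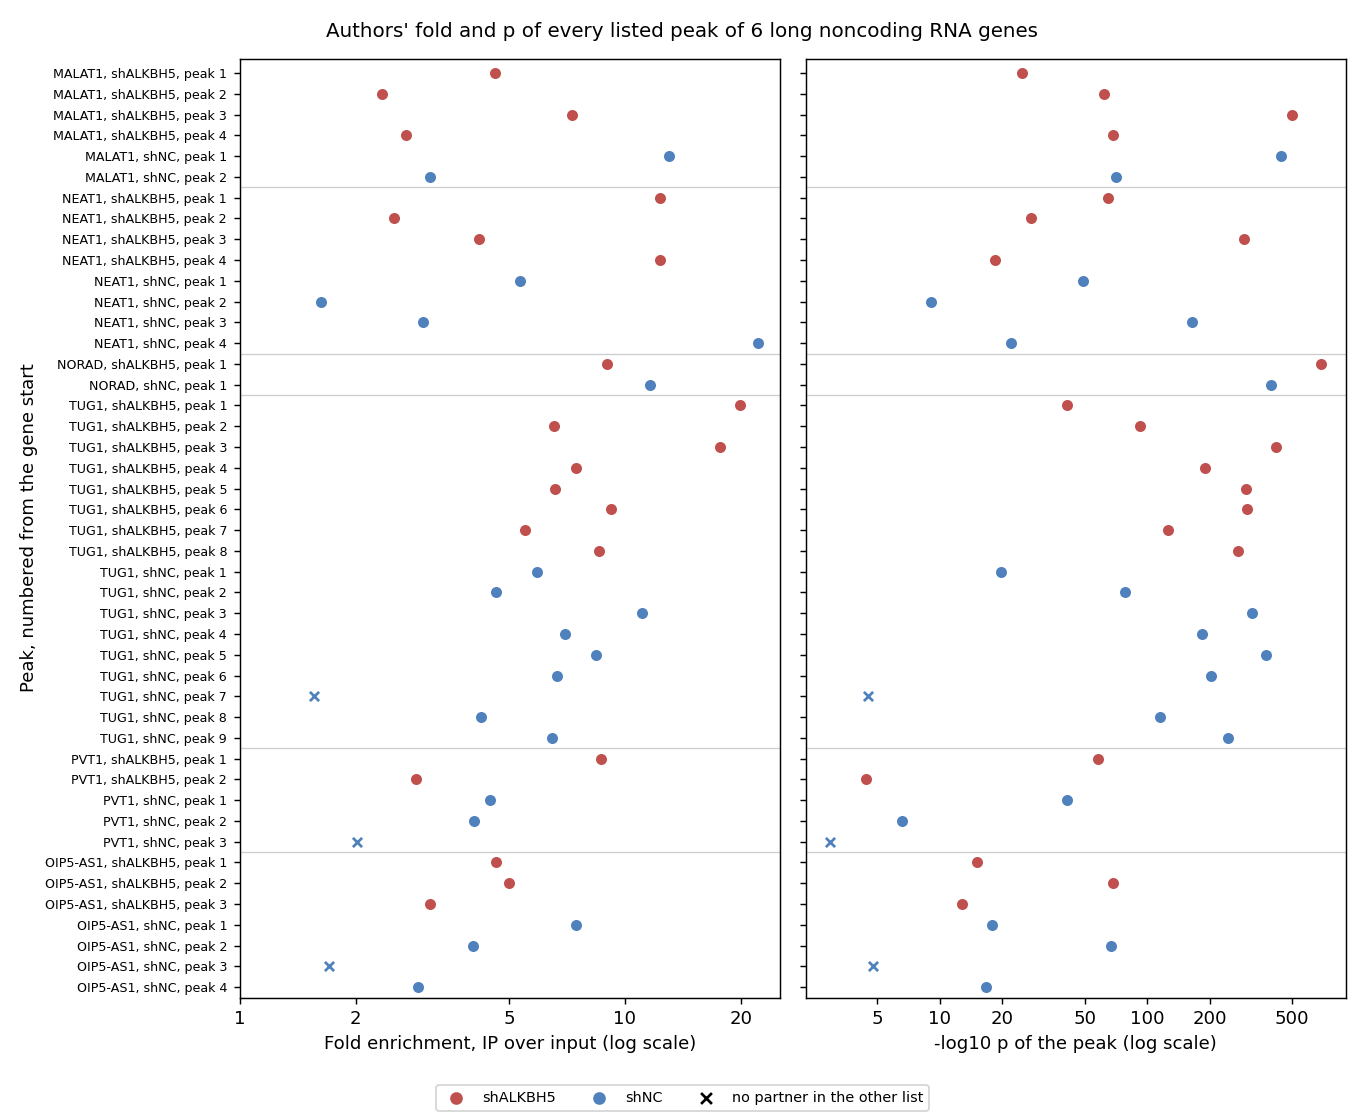
The authors' fold (left, log scale) and -log10 p (right, log scale) of each listed peak, drawn on a line of its own and numbered from the gene start, with shALKBH5 peaks above shNC peaks within each gene and crosses for peaks without a partner. The 3 crosses are all shNC peaks with folds from 1.56 to 2.01, and the NORAD peak has a log10 p of -689 in shALKBH5 and -395 in shNC.

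TUG1 (ENSG00000253352), a lncRNA gene that RefSeq now classes as protein coding, spans 10131 bases on chromosome 22, from 30969265 to 30979395, and was the most densely covered of the 8. Peaks numbered 8 in the shALKBH5 list and 9 in the shNC list and covered 5129 bases (50.6% of the span) and 5281 bases (52.1%). By covered bases TUG1 ranked 16 among 12088 genes of the shALKBH5 list and 15 among 11318 genes of the shNC list, where the median gene had 480 and 481 bases. Unlike those of NORAD and NEAT1, TUG1 peaks were spread over nearly the whole span, from 249 to 9801 bases past the start in the shALKBH5 list. The 8 shALKBH5 peaks each had a TUG1 partner in the shNC list.

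From the start onward, the 8 TUG1 peaks of the shALKBH5 list had folds of 19.9, 6.56, 17.7, 7.47, 6.59, 9.18, 5.5 and 8.59. The 8 matching shNC peaks had 5.93, 4.62, 11.1, 7, 8.43, 6.68, 4.22 and 6.45. The log10 p values, in the same order, were -41, -92.8, -419, -190, -299, -304, -126 and -275 for shALKBH5 and -19.8, -78.3, -320, -184, -375, -203, -115 and -246 for shNC. The third site, at 30971161 to 30971760 in the shALKBH5 list, was the strongest by p there, while in the shNC list the fifth, at 30975173 to 30976161, was. The site nearest the start had the highest fold in the shALKBH5 list and the weakest p of the 8 in both. The extra shNC peak, at 30976940 to 30977060, reached a fold of 1.56 (log10 p -4.49) and lay in the gap of 328 bases between the sixth and seventh shALKBH5 peaks.

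The TUG1 locus also held listed peaks of other annotated entries, 5 in the shALKBH5 list and 4 in the shNC list. AC004542.2 and AC004542.1 lie on the opposite strand and shared bases with the last 3 shared TUG1 sites. The AC004542.2 peak reached a fold of 11.1 (log10 p -250) in the shALKBH5 list, and its stronger peak in the shNC list had 10.2 (log10 p -158). These values and those of the TUG1 peaks beside them can come from the same reads. Among all peaks of the 8 genes with NEAT1 counted once, 7 in the shALKBH5 list and 6 in the shNC list shared bases with a peak of another entry. This count includes the small RF entries, and the share over all peaks was 15.1% in each list. The small entries RF01883, RF01891 and RF01892 lie on the TUG1 strand and within its span, so they may not stand for separate RNAs. They had peaks that shared bases with TUG1 peaks in the shALKBH5 list, and of these RF01883 alone had one in the shNC list.

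PVT1 (ENSG00000249859), a lncRNA gene beside MYC on chromosome 8 whose span of 306733 bases is mostly intron, had 2 peaks in the shALKBH5 list and 3 in the shNC list. The strongest, at 127890624 to 127890952, had the same borders in both, at a fold of 8.66 (log10 p -58) for shALKBH5 and 4.46 (log10 p -40.9) for shNC. The next, from 127932537, was 121 bases wide in the shALKBH5 list and 151 in the shNC list, with folds of 2.87 and 4.05 and log10 p values of -4.42 and -6.61. The shNC list alone held a peak near the gene end, at 128101074 to 128101193, at a fold of 2.01 (log10 p -2.96). That p stands at percentile 2.79 of the shNC list, among its weakest. Whether these peaks lie in exons was not examined, since the annotation used holds gene spans only.

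OIP5-AS1 (ENSG00000247556), known as cyrano and as an RNA that binds the stabilising protein HuR, had 3 peaks in the shALKBH5 list and 4 in the shNC list on chromosome 15, where RefSeq spans it from 41282697 to 41313338. The first began exactly at the RefSeq start shown above, which lies inside that span, at 41283990 to 41284170 in both lists, at a fold of 4.62 (log10 p -15.2) for shALKBH5 and 7.46 (log10 p -17.8) for shNC. An entry named AC087721.2 had a listed peak that shared bases with this one in both lists. The remaining peaks lay downstream, after a gap of 14062 bases. The strongest by p began at 41298233, at a fold of 5 (log10 p -68.4) for shALKBH5 and 4.04 (log10 p -66.8) for shNC. The last, at 41299312 to 41299521 in both lists, reached a fold of 3.11 (log10 p -12.8) for shALKBH5 and 2.91 (log10 p -16.7) for shNC. Between them the shNC list alone held a peak of 91 bases at 41298862 to 41298952, at a fold of 1.71 (log10 p -4.79).

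GAS5, a host gene of small nucleolar RNAs whose spliced RNA is short-lived, and KCNQ1OT1, an imprinted RNA antisense to KCNQ1, had no peak of their own. No peak of any other gene lay within the RefSeq span of GAS5 (chromosome 1, 173863901 to 173869045) or of KCNQ1OT1 (chromosome 11, 2608328 to 2699994) in either list. The nearest peaks to GAS5 belonged to ZBTB37, a neighbour across the GAS5 start, with 2 within 5000 bases in each list. KCNQ1 itself had 1 peak in each list, outside the KCNQ1OT1 span, with a fold of 2.48 for shALKBH5 and 2.44 for shNC. With depth unknown, a missing peak does not show that these RNAs lack m6A.

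**Figure D3:**
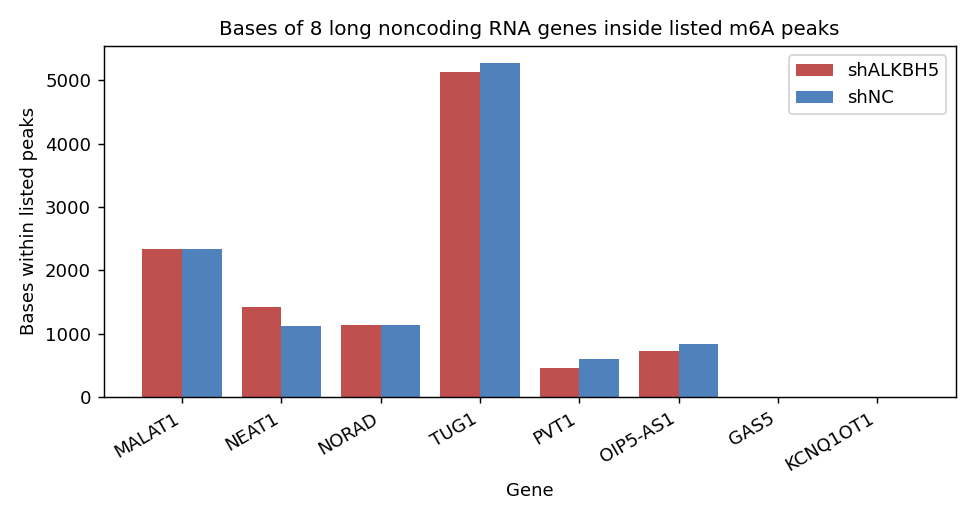
Bases of each gene inside listed peaks, with shALKBH5 bars left of shNC bars, from 0 for GAS5 and KCNQ1OT1 to 5129 in shALKBH5 and 5281 in shNC for TUG1. Both NEAT1 listings are joined here, giving 1422 bases in shALKBH5 and 1127 in shNC, and the MALAT1 bars differ by 1 base.

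Across the 8 genes, all 26 shALKBH5 peaks shared at least 1 base with an shNC peak (100%, exact 95% binomial interval 86.8 to 100%), while over the whole list 19.8% of shALKBH5 peaks did not and 80.2% did. Of the 27 shNC peaks, 24 shared a base with an shALKBH5 peak (88.9%, 70.8 to 97.6%), against 87.4% of all shNC peaks, and 3 did not, against 12.6%. The intervals cover counting error only, and peaks of 1 gene are not independent. The 26 and 27 peaks hold each NEAT1 site in both of its rows. With NEAT1 counted once, the numbers were 22 of 22 (84.6 to 100%) and 20 of 23 (66.4 to 97.2%). The shNC share was thus near that of the whole list. The 3 shNC peaks without a partner, at TUG1, PVT1 and OIP5-AS1, were the only peaks of these genes in that list with a log10 p of -5 or weaker. Of all shNC peaks that weak, 42.2% had no partner, as did 58.4% of shALKBH5 peaks that weak, among which PVT1 had 1 peak, with a partner. Peaks that weak were 5093 of the 24626 shALKBH5 peaks and supplied 2974 of the 4883 without a partner. Only 1 of the 22 shALKBH5 peaks of these genes was that weak. The 100% and the 80.2% thus do not compare peaks of like strength.

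The median peak of the 8 genes was stronger than that of its whole list by p but not higher by fold. With NEAT1 counted once, 9 of 22 shALKBH5 peaks (40.9%) and 9 of 23 shNC peaks (39.1%) had a log10 p of -100 or stronger, against 16.2% and 16.8% of all peaks. TUG1 supplied 6 of the 9 in each list, and MALAT1, NEAT1 and NORAD supplied 1 each. The median peak of the 8 genes had a log10 p of -68.6 in the shALKBH5 list and -66.8 in the shNC list, where the median of all peaks was -15.3 and -15.8. The median fold was 6.57 in the shALKBH5 list and 4.62 in the shNC list, against 6.64 and 6.54 for all peaks. A peak stood lower by fold than by p in 19 of 22 cases in the shALKBH5 list and 19 of 23 in the shNC list, against 56.4% and 56.6% of all peaks. The third NEAT1 site is an example, at percentile 95 by p and 32.3 by fold in the shALKBH5 list and at 89.5 and 20.1 in the shNC list. The abundance of these RNAs in the input, which the tables do not give, could not be set beside these values.

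**Figure D4:**
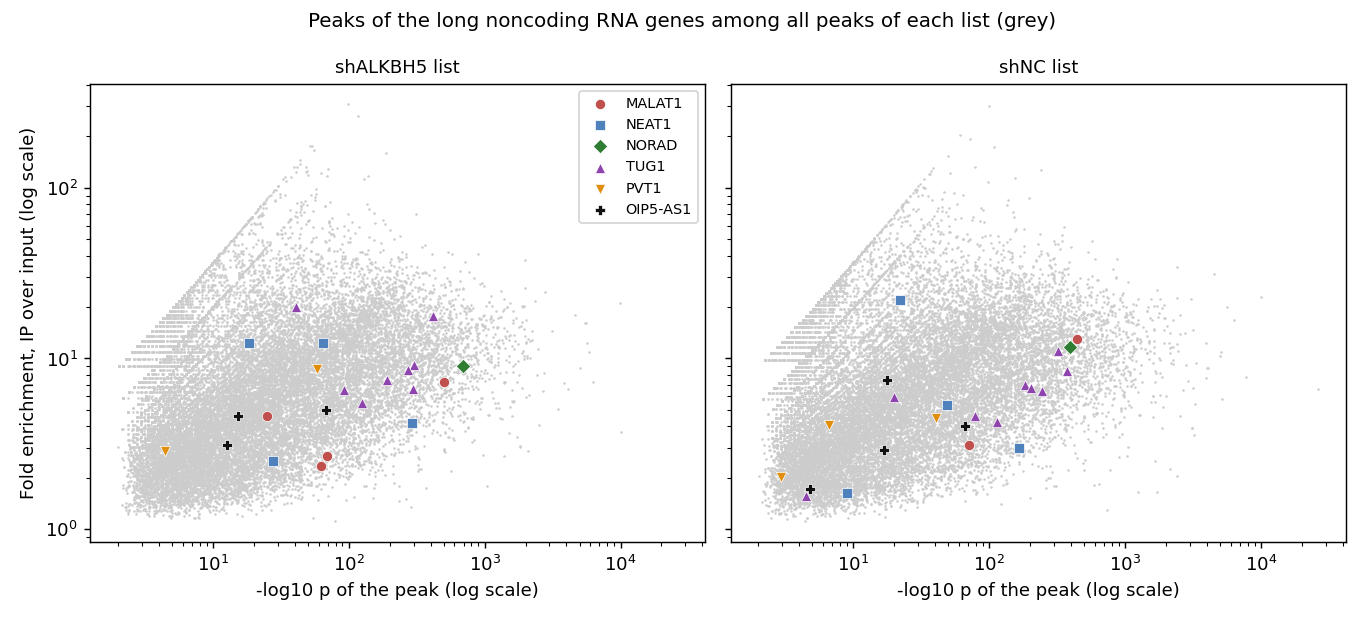
Fold against -log10 p, both on log axes, for all peaks of the shALKBH5 list (left) and the shNC list (right) in grey, with the peaks of 6 lncRNA genes in colour. The coloured points include the NORAD peak at a fold of 8.98 in shALKBH5 and 11.6 in shNC, and the fourth NEAT1 site at 12.3 in shALKBH5 and 22.1 in shNC.

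Some peaks had identical borders in both lists. The same start and end were given in both lists for 5 peaks of these genes, 2 at OIP5-AS1 and 1 each at NORAD, TUG1 and PVT1, out of 22 in the shALKBH5 list and 23 in the shNC list. Over all peaks, 11.4% of the shALKBH5 list and 12.5% of the shNC list had an identical partner. The median width of the peaks of these genes was 450 bases in the shALKBH5 list and 330 in the shNC list, against 269 and 270 for all peaks. The 2 medians rest on different sets of peaks, since some peaks had no partner and the MALAT1 block was divided in 1 list. At the 19 sites with exactly 1 peak in each list, 8 were wider in the shALKBH5 list, 6 were narrower and 5 had the same width. TUG1 supplied 8 of the 22 peaks and 9 of the 23. Not every gene had wide peaks, since those of PVT1 were 120 to 329 bases wide and those of OIP5-AS1 91 to 361.

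The other RefSeq lncRNA genes with peaks were more numerous and mostly weaker by p. They had 943 peaks in 538 genes in the shALKBH5 list and 829 peaks in 476 genes in the shNC list. Their median log10 p was -8.28 in the shALKBH5 list and -9.02 in the shNC list, with median folds of 9.05 and 9.19 and median widths of 240 and 241 bases. Peaks without a partner made up 24.7% of these shALKBH5 peaks and 13.6% of these shNC peaks. No test was made between these genes and the 8, which were chosen as well-known and abundant RNAs.

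In a list of 40 further noncoding RNA genes, 18 had peaks in both lists, 1 in the shALKBH5 list alone, 2 in the shNC list alone and 19 in neither. Over all genes with any peak, 83% stood in both lists, 11.5% in the shALKBH5 list alone and 5.5% in the shNC list alone. Those shares leave out genes without a peak, such as the 19 here. Ranked by the lower of the 2 within-list fold percentiles, FTX and JPX, noncoding genes of the X-inactivation centre, came first, with best folds of 80.5 and 25.3 in the shALKBH5 list and 26.8 and 23.2 in the shNC list. Their best log10 p was -145 for both in the shALKBH5 list, and -128 and -118 in the shNC list. Whether the 2 genes share peaks was not examined. CYTOR followed with 25.3 for shALKBH5 and 19.6 for shNC, HCG18 with 82.3 and 18.7, and the nuclear RNA MIAT with 33.8 and 16.3. The best log10 p of CYTOR was -6.68 for shALKBH5 and -6.97 for shNC, weaker than the medians of all peaks, -15.3 and -15.8. SNHG3, a small nucleolar RNA host gene, stood in the shALKBH5 list alone, at a fold of 3.27 (log10 p -4.49). DLEU1 and DLEU2, from a region deleted in lymphoid leukaemia, stood in the shNC list alone, with folds of 1.4 (log10 p -3.71) and 2.87 (log10 p -6.05). The DLEU1 fold stood at percentile 0.677 of the shNC list, among its lowest. Of the 11 genes with an SNHG symbol, which like GAS5 host small nucleolar RNAs, 3 had peaks in both lists and 7 in neither.

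Among 24 genes of proteins that bind these lncRNAs or of neighbours at their loci, 18 had peaks in both lists. Of the rest, 1 stood in the shALKBH5 list alone, 2 in the shNC list alone and 3 in neither. Over all genes with any peak, 83% stood in both lists, 11.5% in the shALKBH5 list alone and 5.5% in the shNC list alone. PSPC1, a paraspeckle protein gene, and SRSF1, a splicing factor of nuclear speckles, had peaks in the shNC list alone. Their best folds were 13.4 and 1.87, with best log10 p values of -6.23 and -18.2. The imprinted gene CDKN1C, in the domain that KCNQ1OT1 silences, had 2 peaks in the shALKBH5 list alone, with a best fold of 5.4 and a best log10 p of -27.4. Ranked in the same way, ZBTB37 came first, with best folds of 28 for shALKBH5 and 42.8 for shNC, followed by MYC, with 21.1 and 22.9. The best log10 p of ZBTB37 was -7.48 for shALKBH5 and -12.7 for shNC, weaker than the medians of all peaks, -15.3 and -15.8. That of MYC was -9990 and -9930. MORC2 beside TUG1 had best folds of 22.6 and 15.8, and EPB41L1 had best folds of 14.4 and 19.4. HNRNPK, SRSF2 and CHP1 had 0 peaks in either list.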

How the data were processed

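Poly(A) RNA of RPMI-8226 cells was made into 1 IP and 1 input library per hairpin, per the labels' protocols. Per the submitters' processing notes, the tools were HOMER 4.9.1, BWA 0.7.12 and fastp 0.19.11 and the build hg38, with no role stated; no source used here names the peak caller. Each condition has 1 list deposited by the authors. Its columns, per the file headers, include a fold (the ratio of IP over input), a p-value, a log10 p and a log10 FDR; the last 2 pass -100 and were read as scores, as the authors give them. A log10 p cell with a spreadsheet error was ranked as the strongest value.

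Peaks were taken by symbol, and 1 base was added to each deposited start, because block sizes equal end minus start. Peaks were partners when their blocks shared at least 1 base, on either strand and for any gene. Percentiles are shares of a list's peaks with an equal or weaker value. Shares have exact (Clopper-Pearson) 95% binomial intervals. Gene spans and start windows came from RefSeq tables of GRCh38.p14, which placed 88.1% of shALKBH5 and 88.4% of shNC peaks on a gene by symbol or unique older symbol. The partner search was tested on simulated data. Python 3.11.15, pandas 2.3.3, numpy 2.4.6, SciPy 1.17.1 and matplotlib 3.10.9 were used.

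The genes and lists were chosen with earlier results of these data known. Named were all 8 genes, the 5 further noncoding genes with the best lower fold percentile of the 2 lists, the 4 such partner or neighbour genes, and every gene of those lists found in 1 list alone; other genes were named after their values were seen.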

Additional observations from a re-analysis of the deposited data

How the results depend on the processing

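The 6 genes with peaks in both lists stayed 6 with a fold of at least 2 times the lowest of the list, with a log10 p of -10 or stronger, and with lists of equal length by p. Every count of peaks and partners stayed within 1.5 times its main value under the alternatives run. Partnered peaks ranged from 21 to 26 in the shALKBH5 list and from 19 to 25 in the shNC list. The numbers were lowest with peaks of a gene within 100 bp merged, at 21 of 21 and 19 of 21. Not every shALKBH5 peak kept a partner in all settings. With the fold limit 24 of 26 shALKBH5 and 22 of 22 shNC peaks had one, and with the log10 p limit 23 of 25 and 21 of 21. With a reciprocal overlap of 50%, 22 of 26 shALKBH5 and 23 of 27 shNC peaks had a partner, and the wide MALAT1 peak of shNC had none. Leaving out the second NEAT1 listing, chosen after seeing the data, gave 22 and 20. The strongest peak of a gene was the same by fold and by p for 4 of 6 genes in the shALKBH5 list and 3 of 6 in the shNC list; it differed at NEAT1 and TUG1 in both and at OIP5-AS1 in the shNC list. Every peak of these genes has 1 block, so covered bases had to be the same from whole spans as from blocks, and that comparison shows nothing further. No paired analysis was possible because each condition has 1 list. Unknown depth limits what a missing peak shows, and no replicate measures how far folds or borders vary.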

Other observations

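The doubled listing of NEAT1 was not unique to it. Pairs of peaks of the same gene that covered at least 90% of each other within a list numbered 92 in 68 genes of the shALKBH5 list and 96 in 73 genes of the shNC list. Both peaks of such a pair rest on the same libraries, and why they are listed separately was not tested. The larger fold was a median of 1.02 times the smaller in the shALKBH5 list and 1.03 times in the shNC list. It was more than 1.2 times the smaller in 10 pairs (10.9%) and 15 pairs (15.6%), with largest ratios of 5.82 and 2.47. The fourth NEAT1 site of the shNC list, with a ratio of 1.55, lay at the 95th percentile of the shNC pairs, which was also 1.55, where the shALKBH5 pairs had 1.47. These values were computed after the NEAT1 listing was seen.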
